A study of Mus musculus with 15 samples.

Results

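The genes described here are 33 listed genes of cholesterol and fatty acid synthesis with their sensors, regulators and efflux genes, followed in lung fibroblasts as breast cancer metastases grew. The list was set by function, and 31 of them had a probe set among the 18194 genes measured. Acat2 and Nr1h2 were not named by the probe annotation and were not analysed here. The genes were read in 5 arms: 6 measured genes of the isoprenoid steps, 10 of the sterol steps, 6 of sterol sensing and transport, 6 of fatty acid synthesis and 3 of efflux and the liver X receptor (LXR).

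Fibroblasts were sorted from lungs of female NSG mice (NOD.Cg-Prkdc scid Il2rg tm1Wjl/SzJ). The methods put the mice taken for experiments at 6 to 8 weeks of age and call the healthy mice age-matched. They do not give the age on the day of sorting. All groups, the healthy one included, shared the Prkdc and Il2rg lesions of that strain, so these hosts had no T, B or NK cells. The 5 groups were healthy lungs, lungs with micrometastases 1 week after human breast cancer cells of the line MDA-MB-231 (MDA) or of its derivative MDA-MB-231-LM2 (MDA-LM2) were given by tail vein, and lungs with macrometastases 3 weeks after either line. MDA-LM2 was selected for growth in the lung. Each group had 3 arrays, each from 1 to 3 mice, and mice with similar bioluminescence were chosen for the MDA and MDA-LM2 groups. The gate kept cells with PDGFRA or PDGFRB on the surface and without CD45, CD11b, CD31 and EPCAM. Levels are log2 intensities of 1 probe set per gene, and effects are log2 fold changes ± the standard error (SE) of limma's fit. A gene was called higher or lower at an adjusted p under 0.05 over all 18194 genes.

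Cells build cholesterol from acetyl-CoA in a long chain of reactions. The first part makes isoprenoid units through mevalonate, and squalene synthase commits them to sterols, which are then closed into rings and trimmed to cholesterol. The chain is governed by SREBP transcription factors, which SCAP carries to the Golgi for cleavage when membrane sterol is low and which INSIG proteins hold back when sterol is plentiful. SREBP-2 mainly drives cholesterol genes and SREBP-1c fatty acid genes, whereas LXR is switched on by oxysterols and drives the export of cholesterol through ABCA1 and ABCG1.

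Promoters of 5 members are printed because they show what lies ahead of genes that rose in different arms, and of a gene of efflux that fell. They are RefSeq sequences on GRCm38.p6 from 250 bases before to 50 bases after the gene start, in the direction of the gene, and capitals mark 3 motifs: the sterol regulatory element core TCACNCCAC, bound by SREBPs, the CCAAT box, bound by NF-Y, and the E-box CACGTG, which SREBP-1 can also bind. Both strands were searched, so that a CCAAT box on the other strand reads ATTGG. No motif overlapped another in these 5 promoters. Cyp51 lies at chr5:4104648-4104947 on the minus strand, Hmgcs1 at chr13:119690101-119690400 on the plus strand, Idi1 at chr13:8885356-8885655 on the plus strand, Insig1 at chr5:28071162-28071461 on the plus strand and Abca1 at chr4:53159846-53160145 on the minus strand.
Cyp51: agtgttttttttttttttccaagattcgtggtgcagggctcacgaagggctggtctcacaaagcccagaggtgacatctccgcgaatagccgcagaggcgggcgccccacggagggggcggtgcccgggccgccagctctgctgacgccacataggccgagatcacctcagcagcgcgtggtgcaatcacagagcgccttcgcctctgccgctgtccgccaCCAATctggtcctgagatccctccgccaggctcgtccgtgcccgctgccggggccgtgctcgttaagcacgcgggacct
Hmgcs1: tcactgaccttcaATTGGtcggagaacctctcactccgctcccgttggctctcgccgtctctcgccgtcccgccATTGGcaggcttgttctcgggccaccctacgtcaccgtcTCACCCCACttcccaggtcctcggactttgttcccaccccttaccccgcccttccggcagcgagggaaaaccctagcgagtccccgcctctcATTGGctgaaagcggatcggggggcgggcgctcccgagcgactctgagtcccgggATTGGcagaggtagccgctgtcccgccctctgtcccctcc
Idi1: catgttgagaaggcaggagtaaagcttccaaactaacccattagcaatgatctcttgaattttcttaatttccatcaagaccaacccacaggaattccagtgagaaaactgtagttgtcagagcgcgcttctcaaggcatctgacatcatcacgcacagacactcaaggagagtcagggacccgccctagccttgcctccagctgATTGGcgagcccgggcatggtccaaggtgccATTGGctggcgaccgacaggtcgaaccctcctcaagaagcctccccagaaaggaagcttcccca
Insig1: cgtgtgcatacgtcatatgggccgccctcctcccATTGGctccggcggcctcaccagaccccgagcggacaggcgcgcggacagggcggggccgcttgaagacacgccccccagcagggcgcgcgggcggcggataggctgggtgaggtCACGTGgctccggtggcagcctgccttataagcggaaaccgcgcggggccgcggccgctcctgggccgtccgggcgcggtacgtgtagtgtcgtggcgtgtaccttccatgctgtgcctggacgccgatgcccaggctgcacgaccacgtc
Abca1: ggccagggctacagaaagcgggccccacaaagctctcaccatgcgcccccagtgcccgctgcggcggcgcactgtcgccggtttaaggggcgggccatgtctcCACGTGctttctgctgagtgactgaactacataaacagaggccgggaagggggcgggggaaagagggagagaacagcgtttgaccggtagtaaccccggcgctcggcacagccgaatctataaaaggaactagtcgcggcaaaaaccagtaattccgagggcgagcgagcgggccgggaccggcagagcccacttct

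Hmgcs1 held the sterol regulatory element core with its first base at -137, counted from the gene start as 0, together with 4 CCAAT boxes at -237, -176, -45 and 10. Idi1 held CCAAT boxes at -45 and -14 and Cyp51 a single one at -29. Insig1 held a CCAAT box at -216 and an E-box at -101. Abca1 held no CCAAT box in this window and an E-box at -147. Over all members, 24 genes matched an entry with 33 promoters, of which 1 held the sterol regulatory element core, 20 a CCAAT box and 7 an E-box (3.03%, 60.6% and 21.2%). Among all 32851 promoters the shares were 1.24%, 37.4% and 7.15%. A CCAAT box lay in 19 of the 24 genes, including 11 of the 12 called higher with the stage. Genes not called higher held it too, and a link of the motif to the rise was not tested. Fdft1, Fdps, Sqle, Stard4, Scd1, Scd2 and Abcg1 had no entry and are named only. A match is a description of these letters, and no binding was measured. Variants of the sterol regulatory element were not searched, so a promoter without a match may still hold such an element.

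Between week 1 and week 3 most of the measured genes of cholesterol synthesis rose over both models. Over both lines, 18 of the 31 members were called higher and 4 lower on the 6 macro arrays than on the 6 micro arrays, against 18.8% of all genes called higher and 12.3% called lower. Of the 16 genes of the isoprenoid and sterol steps 12 rose, 1 fell and 3 were not called, with a median log2 fold change of 0.93 (0.05 over all genes). Sterol sensing and transport had 3 members higher and 1 lower, fatty acid synthesis 3 higher and none lower, and efflux and LXR none higher and 2 lower, with medians of 0.23, 0.43 and -0.48. The members were chosen with earlier results of these data known, so these counts describe the list. In a sorted population, a different make-up of cells and a different amount of RNA per cell cannot be told apart.

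**Figure D1:**
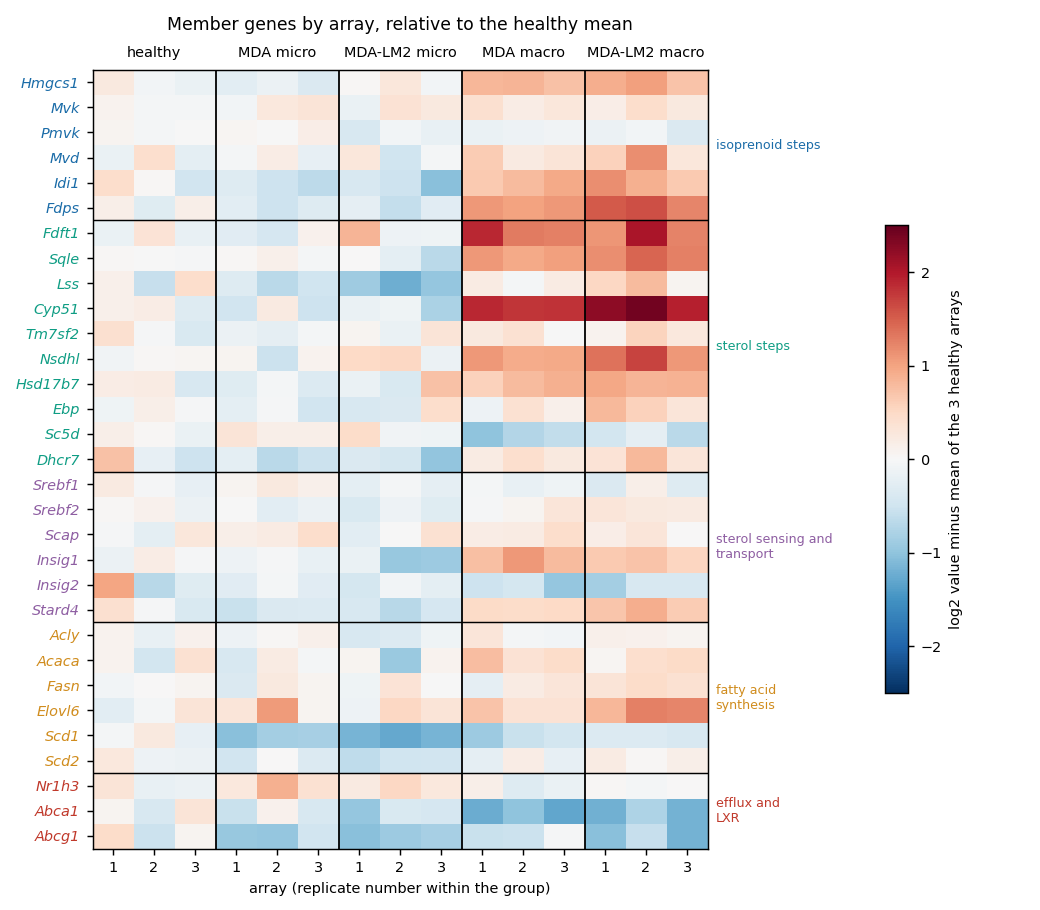
Log2 value of each of the 31 measured members (rows, coloured by arm) on each of the 15 arrays (columns, 3 per group), as the difference from the mean of the 3 healthy arrays. Most isoprenoid and sterol rows turn red on the macro arrays, with Cyp51 the darkest at 1.82 and 2.19 over healthy in the MDA and MDA-LM2 means, while Sc5d and Abca1 turn blue.

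The array medians lay between 7.44 and 7.54 on the log2 scale. The 6 fibroblast markers summed to an intensity of 56993 to 60079 on healthy arrays. On micro arrays the sums were 53160 to 54841 (MDA) and 55815 to 56492 (MDA-LM2). On macro arrays they were 54449 to 54883 (MDA) and 51766 to 53598 (MDA-LM2), so every metastasis array lay below the healthy range. Of these 6, Pdgfrb was called higher in the stage comparison and Pdgfra and Dcn lower. Other signals moved with the stage too, in a comparison where 18.8% of all genes were called higher and 12.3% lower. Proliferation markers were called higher in the stage comparison in 5 of 5 (summed intensity 576 to 994 on healthy and micro arrays and 3449 to 4146 on macro arrays). Of 6 leukocyte and macrophage markers 3 were called higher, namely Csf1r, Cd68 and Lyz2, and the summed intensity was 682 to 1043 on micro and 1338 to 2745 on macro arrays, while the pan-leukocyte marker Ptprc changed by 0.08 ± 0.07 and was not called. Of 5 alveolar macrophage markers 1 was called higher (Marco), of 5 alveolar type 2 epithelial markers 1 lower (Abca3), and of 6 endothelial markers Kdr was higher, by 4.03 ± 0.19, and Tek lower. An array gives no true zero, so no marker could be read as absent. Hybridisation spikes averaged 12.68 to 12.83 on micro and 12.46 to 12.67 on macro arrays. The log2 difference between the 3′ and 5′ Gapdh control probe sets, a sign of RNA quality, was 1.18 to 1.24 on MDA-LM2 micro and 1.01 to 1.05 on MDA-LM2 macro arrays, which did not overlap, and 1.37 to 1.44 on MDA micro and 1.03 to 1.43 on MDA macro arrays, which did (1.16 to 1.70 on healthy arrays). The part of these signals in the results below was not tested.

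In the isoprenoid arm 4 of 6 genes rose. Hmgcs1, which makes HMG-CoA at the entry of the pathway, read 12.05, 11.74 and 11.65 in healthy fibroblasts, 11.55, 11.66 and 11.46 in MDA micro, 11.83, 12.10 and 11.75 in MDA-LM2 micro, 12.65, 12.66 and 12.54 in MDA macro and 12.72, 12.84 and 12.52 in MDA-LM2 macro. All 6 macro arrays lay above all 6 micro arrays and above the 3 healthy ones, and the stage effect was 0.93 ± 0.09 (adjusted p = 1.21e-05). Idi1, the isomerase that turns one isoprenoid unit into its reactive partner, read 10.17, 9.76 and 9.25 in healthy fibroblasts, 9.41, 9.20 and 9.07 in MDA micro, 9.32, 9.21 and 8.69 in MDA-LM2 micro, 10.38, 10.51 and 10.68 in MDA macro and 10.89, 10.62 and 10.38 in MDA-LM2 macro. The macro arrays again lay above all others, and the stage effect was 1.43 ± 0.13 (adjusted p = 6.5e-06). Fdps joins these units to farnesyl diphosphate, the branch point to sterols and to protein prenylation, and it read 8.86, 8.41 and 8.86 in healthy fibroblasts, 8.45, 8.20 and 8.38 in MDA micro, 8.48, 8.12 and 8.43 in MDA-LM2 micro, 9.80, 9.72 and 9.80 in MDA macro and 10.25, 10.32 and 9.94 in MDA-LM2 macro. It was 3.09-fold higher at week 3 than at week 1, a log2 fold change of 1.63 ± 0.11 (adjusted p = 5.94e-07), with no overlap of the groups. The mean of its probe sets gave 0.95 (adjusted p = 6.86e-07), since the other, dimmer probe set of Fdps gave 0.28. Mvd, which makes the first isoprenoid unit by decarboxylation, read 7.92, 8.50 and 7.84 in healthy fibroblasts, 8.03, 8.27 and 7.89 in MDA micro, 8.36, 7.59 and 8.03 in MDA-LM2 micro, 8.73, 8.31 and 8.40 in MDA macro and 8.66, 9.24 and 8.36 in MDA-LM2 macro. Its macro and micro arrays overlapped, with a stage effect of 0.59 ± 0.17 (adjusted p = 0.0198). The kinases ahead of it were not called over both lines, with 0.13 ± 0.11 for Mvk and -0.08 ± 0.09 for Pmvk.

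Among the sterol steps 8 of 10 genes rose, 1 fell and 1 was not called. Fdft1, squalene synthase, read 8.67, 9.18 and 8.64 in healthy fibroblasts, 8.56, 8.41 and 8.93 in MDA micro, 9.68, 8.70 and 8.72 in MDA-LM2 micro, 10.72, 10.13 and 10.09 in MDA macro and 9.92, 10.87 and 10.07 in MDA-LM2 macro. The macro arrays lay above every micro and healthy array, although MDA-LM2 micro replicate 1 stood 0.96 above the next micro array of its group, and the stage effect was 1.47 ± 0.22 (adjusted p = 0.000297). Sqle, squalene epoxidase and a slow step of the sterol branch, read 8.29, 8.25 and 8.22 in healthy fibroblasts, 8.28, 8.37 and 8.21 in MDA micro, 8.26, 8.01 and 7.58 in MDA-LM2 micro, 9.34, 9.20 and 9.27 in MDA macro and 9.41, 9.71 and 9.51 in MDA-LM2 macro. The 3 healthy arrays were within 0.07 of each other, and every macro array stood above them, with a stage effect of 1.29 ± 0.14 (adjusted p = 2.18e-05). Lss, which closes squalene epoxide into lanosterol, read 9.87, 9.18 and 10.19 in healthy fibroblasts, 9.41, 9.07 and 9.26 in MDA micro, 8.86, 8.53 and 8.78 in MDA-LM2 micro, 9.96, 9.71 and 9.96 in MDA macro and 10.27, 10.54 and 9.82 in MDA-LM2 macro. Its macro arrays lay above all micro arrays but overlapped the healthy ones, so that the stage effect of 1.06 ± 0.17 (adjusted p = 0.000574) went with effects against healthy of 0.13 ± 0.25 in MDA macro and 0.46 ± 0.29 in MDA-LM2 macro, neither of them called.

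Cyp51, the lanosterol demethylase, had the highest rise of all members. It read 9.34, 9.40 and 8.89 in healthy fibroblasts, 8.74, 9.44 and 8.69 in MDA micro, 9.04, 9.10 and 8.41 in MDA-LM2 micro, 11.09, 10.99 and 11.02 in MDA macro and 11.44, 11.61 and 11.16 in MDA-LM2 macro. The lowest macro array stood 1.56 above the highest micro array, and the stage effect of 2.32 ± 0.17 (adjusted p = 1.03e-06) was a 4.99-fold difference. Nsdhl works with other enzymes on the demethylation of the sterol at one of its carbons, and it read 8.74, 8.86 and 8.89 in healthy fibroblasts, 8.89, 8.29 and 8.92 in MDA micro, 9.34, 9.34 and 8.68 in MDA-LM2 micro, 9.92, 9.75 and 9.78 in MDA macro and 10.19, 10.52 and 9.91 in MDA-LM2 macro. Its macro arrays lay above all others, with a stage effect of 1.10 ± 0.15 (adjusted p = 0.00018). The other sterol genes that rose gave 0.91 ± 0.16 for the ketoreductase Hsd17b7, 0.93 ± 0.14 for Dhcr7, which reduces 7-dehydrocholesterol to cholesterol, and 0.52 ± 0.16 for the isomerase Ebp (adjusted p = 0.000972, 0.00029 and 0.0283). The call of Ebp was lost without MDA micro replicate 3, MDA-LM2 micro replicate 1 or 2, MDA macro replicate 2 or MDA-LM2 macro replicate 1 or 2 (adjusted p = 0.0563 to 0.0648). Tm7sf2, a sterol reductase of the same arm, changed by 0.28 ± 0.11 and was not called (adjusted p = 0.0739).

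Sc5d moved against its arm. It encodes the desaturase that makes 7-dehydrocholesterol, the substrate of Dhcr7, and was picked out after its values were seen. It read 10.24, 10.12 and 9.92 in healthy fibroblasts, 10.41, 10.24 and 10.23 in MDA micro, 10.56, 10.003 and 9.98 in MDA-LM2 micro, 9.08, 9.36 and 9.48 in MDA macro and 9.63, 9.88 and 9.43 in MDA-LM2 macro. The 6 macro arrays lay below the 6 micro arrays and below the 3 healthy ones, with a stage effect of -0.76 ± 0.14 (adjusted p = 0.00115). The other probe sets of Sc5d gave differences between the stage means of -0.88 and -0.62.

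**Figure D2:**
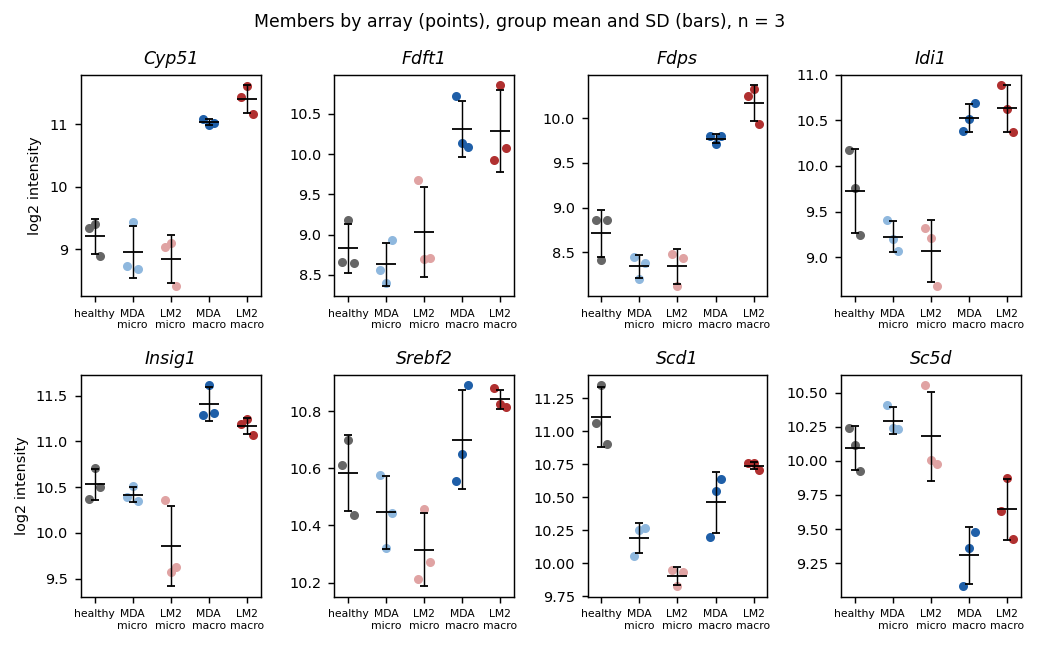
Log2 intensity (vertical axes, each panel with its own range) of 8 members on each array, with points for the 3 arrays of a group and bars for the group mean and SD (LM2 stands for MDA-LM2). Cyp51, Fdft1, Fdps, Idi1 and Insig1 are above the micro arrays on every macro array, Sc5d is below them, and Scd1 is highest on the healthy arrays (10.90 to 11.35).

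The sensors and carriers of the pathway moved unevenly. Insig1, the sterol-dependent anchor of SCAP and itself an SREBP target, read 10.37, 10.71 and 10.50 in healthy fibroblasts, 10.40, 10.51 and 10.35 in MDA micro, 10.36, 9.57 and 9.62 in MDA-LM2 micro, 11.29, 11.62 and 11.31 in MDA macro and 11.19, 11.25 and 11.07 in MDA-LM2 macro. All macro arrays lay above all other arrays, and the stage effect was 1.15 ± 0.14 (adjusted p = 4.87e-05). Stard4, a soluble carrier of cholesterol between membranes, read 9.48, 9.05 and 8.70 in healthy fibroblasts, 8.51, 8.71 and 8.73 in MDA micro, 8.68, 8.38 and 8.66 in MDA-LM2 micro, 9.56, 9.54 and 9.58 in MDA macro and 9.76, 9.99 and 9.71 in MDA-LM2 macro. Again no macro array reached down to the micro or healthy range, and the stage effect was 1.08 ± 0.10 (adjusted p = 5e-06). Srebf2, which encodes SREBP-2, read 10.61, 10.70 and 10.44 in healthy fibroblasts, 10.58, 10.32 and 10.45 in MDA micro, 10.21, 10.46 and 10.27 in MDA-LM2 micro, 10.56, 10.65 and 10.89 in MDA macro and 10.88, 10.83 and 10.82 in MDA-LM2 macro. Only 1 macro array, MDA macro replicate 1, lay within the micro range, and the stage effect was 0.39 ± 0.09 (adjusted p = 0.00633), a 1.31-fold difference.

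Srebf1, which encodes both SREBP-1 forms, read 9.91, 9.66 and 9.49 in healthy fibroblasts, 9.75, 9.94 and 9.82 in MDA micro, 9.44, 9.64 and 9.47 in MDA-LM2 micro, 9.64, 9.51 and 9.57 in MDA macro and 9.33, 9.83 and 9.37 in MDA-LM2 macro. The macro and micro arrays overlapped and the stage effect was -0.14 ± 0.10 (adjusted p = 0.342). Scap, the escort of the SREBPs, read 8.96, 8.75 and 9.27 in healthy fibroblasts, 9.14, 9.20 and 9.43 in MDA micro, 8.72, 8.98 and 9.37 in MDA-LM2 micro, 9.18, 9.20 and 9.43 in MDA macro and 9.15, 9.29 and 8.999 in MDA-LM2 macro. It overlapped in the same way, at 0.07 ± 0.11 (adjusted p = 0.694). Insig2, the second anchor, read 10.74, 9.05 and 9.45 in healthy fibroblasts, 9.46, 9.69 and 9.46 in MDA micro, 9.31, 9.67 and 9.50 in MDA-LM2 micro, 9.24, 9.31 and 8.79 in MDA macro and 8.89, 9.35 and 9.35 in MDA-LM2 macro. Healthy replicate 1 stood 1.30 above the next healthy array, the micro and macro arrays overlapped, and the stage effect was -0.36 ± 0.12 (adjusted p = 0.0388). The call of Insig2 was lost in 9 of 18 alternatives, among them a fit of all 15 arrays (adjusted p = 0.25) and the omission of any 1 of 8 arrays, which were all MDA micro arrays, MDA-LM2 micro replicates 2 and 3, MDA macro replicates 1 and 3 and MDA-LM2 macro replicate 1 (adjusted p = 0.0502 to 0.0861).

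Fatty acid synthesis genes had a median stage effect of 0.43, beside 0.99 for the sterol steps, a difference that was not tested, and none of the 6 separated all macro from all micro arrays. Acaca, the carboxylase that makes malonyl-CoA, read 9.43, 8.88 and 9.73 in healthy fibroblasts, 8.95, 9.55 and 9.30 in MDA micro, 9.42, 8.41 and 9.44 in MDA-LM2 micro, 10.11, 9.70 and 9.81 in MDA macro and 9.40, 9.76 and 9.82 in MDA-LM2 macro. MDA-LM2 micro replicate 2 was the lowest array, and the stage effect was 0.59 ± 0.18 (adjusted p = 0.0244). That call was lost without MDA micro replicate 1, MDA macro replicate 1 or MDA-LM2 macro replicate 3 (adjusted p = 0.0521 to 0.0561), and the mean of its 2 probe sets gave 0.32 (adjusted p = 0.0688). Scd2, a stearoyl-CoA desaturase, read 11.89, 11.51 and 11.49 in healthy fibroblasts, 11.15, 11.64 and 11.29 in MDA micro, 10.997, 11.13 and 11.16 in MDA-LM2 micro, 11.40, 11.81 and 11.43 in MDA macro and 11.84, 11.67 and 11.77 in MDA-LM2 macro. Its stage effect was 0.43 ± 0.12 (adjusted p = 0.0196), with the highest level on a healthy array.

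Scd1, the second desaturase and a known LXR and SREBP-1c target, was highest in healthy fibroblasts. It read 11.06, 11.35 and 10.90 in healthy fibroblasts, 10.06, 10.25 and 10.27 in MDA micro, 9.95, 9.83 and 9.93 in MDA-LM2 micro, 10.20, 10.55 and 10.64 in MDA macro and 10.76, 10.76 and 10.71 in MDA-LM2 macro. All 6 micro arrays lay below all 3 healthy arrays, which held for no other member, and the macro arrays lay between for the most part. The stage effect was 0.55 ± 0.12 (adjusted p = 0.00334). Fasn, the fatty acid synthase, read 9.73, 9.81 and 9.88 in healthy fibroblasts, 9.45, 10.04 and 9.87 in MDA micro, 9.69, 10.15 and 9.79 in MDA-LM2 micro, 9.58, 10.004 and 10.12 in MDA macro and 10.13, 10.27 and 10.19 in MDA-LM2 macro. All MDA-LM2 macro arrays lay above the healthy arrays, and the other groups overlapped them, with a stage effect of 0.22 ± 0.13 (adjusted p = 0.227). Elovl6, which elongates palmitate, read 7.69, 7.90 and 8.27 in healthy fibroblasts, 8.26, 9.02 and 8.02 in MDA micro, 7.82, 8.48 and 8.28 in MDA-LM2 micro, 8.68, 8.32 and 8.32 in MDA macro and 8.78, 9.22 and 9.17 in MDA-LM2 macro. Its macro arrays lay above the healthy arrays but overlapped the micro arrays, with a stage effect of 0.43 ± 0.21 (adjusted p = 0.139). Acly, which supplies acetyl-CoA from citrate for both pathways, changed by 0.22 ± 0.10 and was not called.

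Of the 3 genes of efflux and LXR, 2 fell with the stage and none rose. Abca1, which loads cholesterol onto lipid-poor apolipoprotein A-I, read 11.01, 10.54 and 11.25 in healthy fibroblasts, 10.38, 11.04 and 10.54 in MDA micro, 9.97, 10.55 and 10.51 in MDA-LM2 micro, 9.69, 9.93 and 9.64 in MDA macro and 9.74, 10.15 and 9.76 in MDA-LM2 macro. Most macro arrays lay below the micro arrays, but MDA-LM2 micro replicate 1 (9.97) fell below MDA-LM2 macro replicate 2 (10.15), and the stage effect was -0.68 ± 0.15 (adjusted p = 0.00498). Nr1h3, which encodes LXR alpha, read 11.41, 10.91 and 10.93 in healthy fibroblasts, 11.35, 11.97 and 11.47 in MDA micro, 11.31, 11.61 and 11.34 in MDA-LM2 micro, 11.24, 10.77 and 10.92 in MDA macro and 11.12, 11.04 and 11.09 in MDA-LM2 macro. Every macro array lay below every micro array, while the healthy arrays spanned both, and the stage effect was -0.48 ± 0.12 (adjusted p = 0.0109). Abcg1, which passes cholesterol to mature lipoprotein particles, read 7.91, 6.92 and 7.51 in healthy fibroblasts, 6.50, 6.47 and 6.96 in MDA micro, 6.40, 6.53 and 6.62 in MDA-LM2 micro, 6.88, 6.91 and 7.43 in MDA macro and 6.40, 6.87 and 6.26 in MDA-LM2 macro. Its macro and micro arrays overlapped, at 0.21 ± 0.15 (adjusted p = 0.312). The Abcg1 probe set was dim, with a mean of 6.84 against a median of 8.12 over the gene means, so background may weigh on its values.

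**Figure D3:**
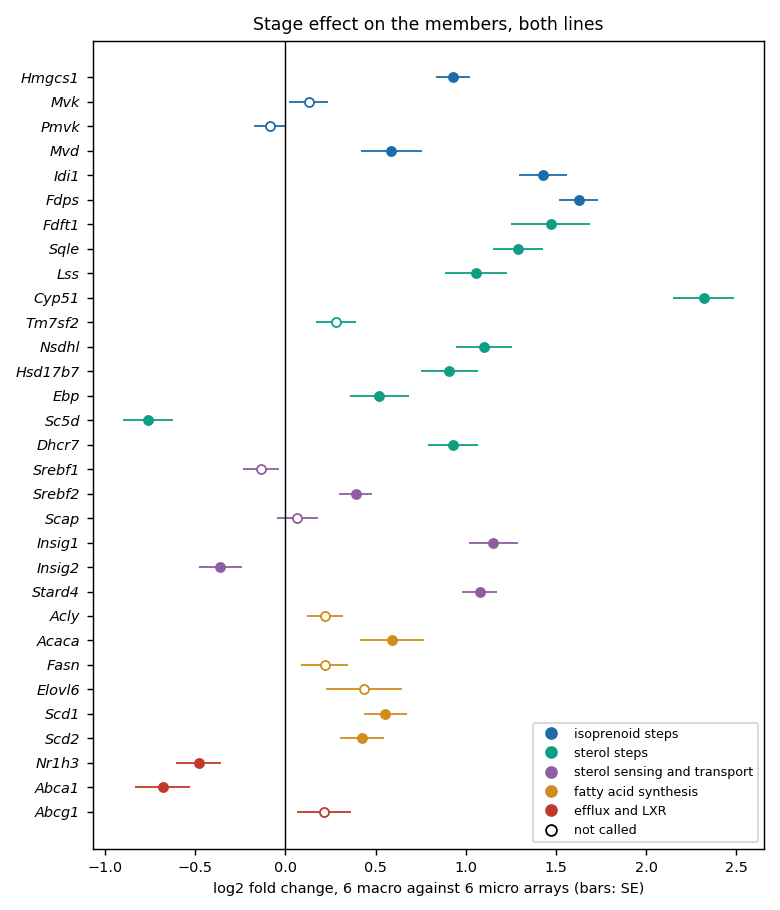
Log2 fold change of each of the 31 members between the 6 macro and the 6 micro arrays with the line as a covariate (horizontal axis, bars for SE), coloured by arm, with open circles for members that were not called. Filled points run from -0.76 (Sc5d) to 2.32 (Cyp51), and 18 lie to the right and 4 to the left of 0.

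The array values also separated without a model. On 11 of 31 members the 6 macro arrays all lay above the 6 micro arrays, against 9.0% of all genes, and on 2 they all lay below, against 5.93%. The 11 comprised 3 isoprenoid genes, 6 sterol genes and 2 of sensing and transport, and the 2 were Sc5d and Nr1h3. Of the 40 probe sets of members that were not used, which belonged to 21 genes, 3 gave a macro minus micro difference of the sign opposite to the probe set used. They gave -0.42 for Elovl6, -0.09 for Acly and -0.0027 for Mvk. The 4 other probe sets of Hmgcs1 gave 0.75 to 1.72. With the mean of its probe sets the stage effect of Hsd17b7 was 0.55 (adjusted p = 0.000725).

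Members were also called higher in each line taken alone, on arrays that the other line did not share. Of the 16 isoprenoid and sterol genes 10 were called higher in MDA and 9 in MDA-LM2. In MDA, 12 members were called higher and 2 lower at week 3 (10.4% and 7.95% of all genes), and in MDA-LM2, 15 were higher and none lower (9.25% and 6.38%). Both lines called 11 members higher, against 5.15% of all genes, and the sign of the effect was the same in 29 of 31 members (93.55%, and 72.78% of all genes). Cyp51 rose by 2.08 ± 0.21 in MDA and 2.56 ± 0.21 in MDA-LM2, Fdps by 1.43 ± 0.12 and 1.82 ± 0.16 (0.83 and 1.08 with the mean of its probe sets), and Insig1 by 0.99 ± 0.13 and 1.32 ± 0.22. The genes that fell in MDA were Sc5d (-0.99 ± 0.14, -0.54 ± 0.20 in MDA-LM2 and not called there) and Abca1 (-0.90 ± 0.19 and -0.46 ± 0.20, likewise not called). Some calls in a single line rested on single arrays. Fdft1 was called in MDA-LM2 (1.26 ± 0.34, adjusted p = 0.0473), but not without its micro replicate 2 or 3 or any of its macro arrays (adjusted p = 0.0667 to 0.129), Nsdhl not without MDA-LM2 macro replicate 1 or 2 (0.0631 and 0.071), and Srebf2 (0.53 ± 0.11, adjusted p = 0.0217) not without MDA-LM2 micro replicate 1 or 3 or any MDA-LM2 macro array (0.0589 to 0.074). In MDA the call of Lss (0.63 ± 0.14, adjusted p = 0.0212) was lost without micro replicate 2 or 3 or macro replicate 1 or 3 (0.0597 to 0.0695), with 0.35 by the mean of its probe sets, and that of Abca1 without macro replicate 1 or 3 (0.0549 and 0.059).

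Fatty acid genes were called in MDA-LM2 and not in MDA, with 3 of 6 against none. Scd1 rose by 0.84 ± 0.10 in MDA-LM2 (adjusted p = 0.00238) and changed by 0.27 ± 0.15 in MDA, Scd2 by 0.67 ± 0.11 and 0.18 ± 0.18, and Elovl6 by 0.86 ± 0.20 and 0.01 ± 0.26. Elovl6 lost its MDA-LM2 call without micro replicate 1 or 3 or macro replicate 2 or 3 of that line (adjusted p = 0.0613 to 0.102) and with the mean of its probe sets (0.36). The difference between the lines was tested as an interaction, which called no member (0.566% of all genes called), with 0.86 ± 0.36 (adjusted p = 0.382) for Elovl6, 0.57 ± 0.18 (adjusted p = 0.213) for Scd1 and 0.86 ± 0.25 (adjusted p = 0.186) for Lss. Of the 31 members 5 had an unadjusted p under 0.05 in that test, and 2098 of all genes did.

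**Figure D4:**
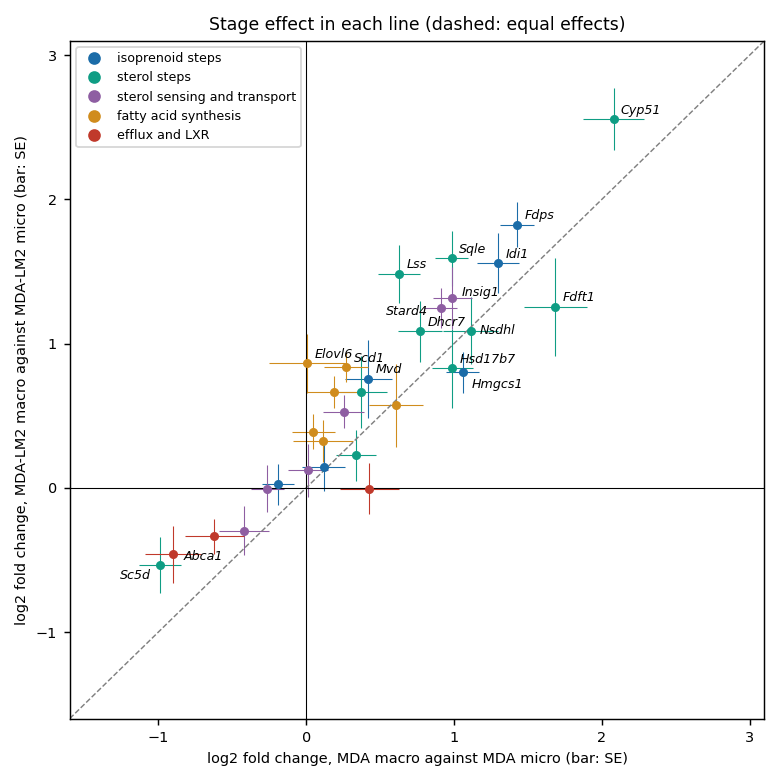
Log2 fold change of each member between week 3 and week 1 in MDA (horizontal axis) and MDA-LM2 (vertical axis), with bars for SE, colours for arms and a dashed line of equal effects. Cyp51 is farthest out at 2.08 and 2.56, and Elovl6 lies near 0 in MDA (0.01) and at 0.86 in MDA-LM2.

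At a given stage the lines were not told apart on these genes. At week 1 no member was called between MDA-LM2 and MDA micro (0.412% of all genes were), and at week 3 none between MDA-LM2 and MDA macro (0.011%). Unadjusted p-values under 0.05 were found for 5 members at week 1 and 6 at week 3. The matching counts over all genes are not given here, so no difference between the lines is read from them. At week 3 the sterol steps had a median difference of 0.30 towards MDA-LM2, with 9 of 10 fitted above 0, and the largest single difference of a sterol gene was 0.44 ± 0.18 for Ebp (adjusted p = 0.464). The sign share and median over all genes are not given here, so these values only describe the arm. MDA-LM2 macro replicate 2 had the highest mean of the 10 sterol genes of any array, 0.87 above the 15-array mean, against 0.59 and 0.45 for the other replicates of its group.

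At week 3 many members also stood above healthy fibroblasts. In MDA macro 8 members were called higher and 3 lower (8.43% and 6.8% of all genes), and in MDA-LM2 macro 13 higher and 2 lower (13.6% and 8.98%). These comparisons share the 3 healthy arrays and are given side by side. The share of all genes called higher in both is not given here, so the count of 8 only describes the list. The 8 higher in both groups were Cyp51 (1.82 ± 0.16 in MDA and 2.19 ± 0.18 in MDA-LM2), Fdft1 (1.49 ± 0.22 and 1.46 ± 0.27), Fdps (1.06 ± 0.15 and 1.46 ± 0.17), Sqle (1.02 ± 0.11 and 1.29 ± 0.12), Nsdhl (0.99 ± 0.11 and 1.38 ± 0.17), Insig1 (0.88 ± 0.15 and 0.64 ± 0.13), Hmgcs1 (0.80 ± 0.14 and 0.88 ± 0.15) and Hsd17b7 (0.76 ± 0.19 and 0.89 ± 0.18). Hsd17b7 lost its MDA call without any 1 of the 6 arrays (adjusted p = 0.0523 to 0.112) and with the mean of its probe sets (0.32, adjusted p = 0.245), and its MDA-LM2 call without macro replicate 1 (0.0502). The mean of probe sets also gave 1.25 for Cyp51 and 0.81 for Fdps in MDA-LM2 macro, and 0.86 for Fdft1 and 0.63 for Fdps in MDA macro, each still called. On 12 members all 6 macro arrays lay above all 3 healthy arrays. The share of all genes that did so is not given here, so this count only describes the list.

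A further 5 members were called higher in MDA-LM2 macro and not in MDA macro, namely Idi1, Stard4, Ebp, Elovl6 and Fasn. Over all genes more were also called higher in MDA-LM2 macro (2482) than in MDA macro (1533). The share called in MDA-LM2 macro alone is not given here, so the 5 are not read as particular to that line. Elovl6 was 1.10 ± 0.19 over healthy in MDA-LM2 (adjusted p = 0.00747) and 0.48 ± 0.18 in MDA, a difference between the macro groups of 0.62 ± 0.16 that was not called (adjusted p = 0.261). With the mean of its probe sets the value for Elovl6 in MDA-LM2 was 0.47 (adjusted p = 0.036). Fasn was 0.39 ± 0.10 over healthy in MDA-LM2 (adjusted p = 0.0351), a call lost without any 1 of the 6 arrays (adjusted p = 0.0563 to 0.104). Ebp lost its call without any healthy array or without MDA-LM2 macro replicate 1 or 2 (0.0522 to 0.106), and Idi1 and Stard4 lost theirs without healthy replicate 2 or 3 or any MDA-LM2 macro array (0.0596 to 0.127). Without MDA-LM2 macro replicate 1 the count of called members fell from 15 to 9, and the 6 lost were Abcg1, Ebp, Fasn, Hsd17b7, Idi1 and Stard4.

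Abca1 was lower than healthy at week 3 in both models, at -1.18 ± 0.20 (adjusted p = 0.00905) in MDA macro and -1.05 ± 0.21 (adjusted p = 0.0132) in MDA-LM2 macro. Sc5d was lower in MDA macro (-0.79 ± 0.15, adjusted p = 0.0149) and at -0.45 ± 0.15 in MDA-LM2 macro, not called. Abcg1 was lower in MDA-LM2 macro (-0.94 ± 0.27, adjusted p = 0.0486), a call lost without healthy replicate 1 or 3 or any MDA-LM2 macro array (adjusted p = 0.0589 to 0.137) and with the mean of its 2 probe sets (-0.42, adjusted p = 0.123). Its probe set was dim, and the gene was not part of the fit without dim genes. Scd1 was below healthy in MDA macro (-0.64 ± 0.17, adjusted p = 0.0473), a call lost without any 1 of the 6 arrays (adjusted p = 0.0578 to 0.128), and at -0.36 ± 0.14 in MDA-LM2 macro, not called.

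At week 1 no member was called higher than in healthy fibroblasts. No member was called between MDA micro and healthy fibroblasts, nor was any gene (0.0% of all genes by limma), although 3 members and 1542 of all genes had an unadjusted p under 0.05. In MDA-LM2 micro 1 member was called lower and none higher, against 0.115% and 0.467% of all genes. That member was Scd1, at -1.20 ± 0.14 (adjusted p = 0.0304), with -0.91 ± 0.15 in MDA micro (adjusted p = 0.254). The call was lost without healthy replicate 1 or 2 or any 1 of the MDA-LM2 micro arrays (adjusted p = 0.0831 to 0.128), although no micro array overlapped a healthy one. In the same comparison 2 markers were called higher, Fabp4 of the alveolar macrophage list (1.68 ± 0.20, adjusted p = 0.0296) and the proliferation marker Top2a (1.00 ± 0.15, adjusted p = 0.0488), both calls lost with the mean of probe sets. The 5 alveolar macrophage markers summed to 1329 to 1422 on MDA-LM2 micro arrays and 646 to 816 on healthy arrays, and the 5 proliferation markers to 896 to 994 and 576 to 692. Of the alveolar macrophage list only Fabp4 was fitted above healthy. Marco, Siglecf, Chil3 and Car4 were fitted below healthy and were not called (-0.10, -0.05, -0.73 and -0.11). The part of these signals in the value of Scd1 was not tested. Of the 16 isoprenoid and sterol genes 12 were fitted below healthy in MDA micro and 9 in MDA-LM2 micro, with medians of -0.22 and -0.10, and Lss had the lowest value in MDA-LM2 micro (-1.02 ± 0.26, adjusted p = 0.201). None of the 16 was called, and signs and medians over all genes are not given here. No fall of these genes at week 1 is read from these values. Healthy replicate 1 had the highest mean of the healthy arrays for the isoprenoid, sterol, sensing and efflux arms.

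Genes of related function outside the 33 were counted by list. In the stage comparison 18.8% of all genes were called higher and 12.3% lower, and counts in lists this short only describe them. Of 3 other sterol synthesis genes measured, 2 rose with the stage: Msmo1, the sterol methyl oxidase that works next to Nsdhl, by 1.63 ± 0.15, and Tmem97, a sterol-regulated membrane protein, by 0.72 ± 0.15. Msmo1 read 8.87, 9.56 and 7.98 in healthy fibroblasts, 8.14, 8.11 and 7.93 in MDA micro, 8.40, 7.57 and 7.81 in MDA-LM2 micro, 9.72, 9.47 and 9.59 in MDA macro and 9.64, 10.03 and 9.29 in MDA-LM2 macro. Its macro arrays lay above all micro arrays and overlapped the widely spread healthy arrays, and the mean of its probe sets gave 0.97. Among 5 genes of SREBP processing only Mbtps2, the site-2 protease, was called, at 0.32 ± 0.10 (adjusted p = 0.033), and that call was lost in 10 of 18 alternatives, 7 of them the omission of 1 array: MDA micro replicate 2 or 3, MDA-LM2 micro replicate 1 or 2, MDA macro replicate 2 or MDA-LM2 macro replicate 1 or 3 (adjusted p = 0.0586 to 0.0734).

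Of 9 uptake and storage genes 3 were called higher and 2 lower in the stage comparison (18.8% and 12.3% of all genes). Scarb1, the receptor for high-density lipoprotein, read 7.83, 7.94 and 7.92 in healthy fibroblasts, 6.21, 6.80 and 7.33 in MDA micro, 7.48, 7.87 and 7.05 in MDA-LM2 micro, 8.31, 8.75 and 8.58 in MDA macro and 8.94, 8.9999 and 9.08 in MDA-LM2 macro. All macro arrays lay above all others, and the stage effect was 1.65 ± 0.18 (adjusted p = 2.81e-05). Vldlr, a receptor for triglyceride-rich lipoproteins, read 12.13, 12.04 and 12.09 in healthy fibroblasts, 12.18, 12.15 and 12.16 in MDA micro, 12.10, 12.02 and 12.22 in MDA-LM2 micro, 11.09, 10.98 and 11.23 in MDA macro and 10.92, 10.59 and 10.88 in MDA-LM2 macro. Its macro arrays lay at least 0.79 below all others, with a stage effect of -1.19 ± 0.09 (adjusted p = 1.23e-06). Mylip, the LXR-induced ligase that removes lipoprotein receptors, rose by 0.68 ± 0.17 (adjusted p = 0.00979). Of 14 other fatty acid genes 3 rose and 3 fell (18.8% and 12.3% of all genes). Among them was Acsl4, which activates long polyunsaturated fatty acids, at 1.70 ± 0.17 (adjusted p = 1.18e-05). The acetyl-CoA synthetase Acss2 was at -0.86 ± 0.19 (adjusted p = 0.00497), or -0.44 with the mean of its probe sets. The citrate carrier Slc25a1 was at 0.46 ± 0.14 (adjusted p = 0.0222) and was not called without MDA-LM2 macro replicate 3 (adjusted p = 0.0515).

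Oxysterol enzymes and LXR targets had 3 of 10 members higher and 2 lower in the stage comparison (18.8% and 12.3% of all genes). Cyp27a1, a mitochondrial sterol hydroxylase that makes an oxysterol, read 10.30, 11.06 and 10.05 in healthy fibroblasts, 10.40, 10.54 and 10.85 in MDA micro, 10.10, 9.70 and 9.91 in MDA-LM2 micro, 8.06, 8.40 and 8.83 in MDA macro and 8.07, 8.08 and 8.16 in MDA-LM2 macro. Its macro arrays lay below all others, 3.95-fold lower than at week 1, a stage effect of -1.98 ± 0.14 (adjusted p = 8.02e-07). The mean of its probe sets gave -0.85 (adjusted p = 4.35e-05). Ch25h, another oxysterol-making hydroxylase, read 7.78, 8.56 and 8.19 in healthy fibroblasts, 7.95, 9.09 and 8.36 in MDA micro, 8.78, 8.78 and 8.84 in MDA-LM2 micro, 9.15, 10.04 and 9.70 in MDA macro and 10.36, 9.01 and 9.39 in MDA-LM2 macro. Of its macro arrays, MDA-LM2 macro replicate 2 alone lay within the micro range, and the stage effect was 0.98 ± 0.25 (adjusted p = 0.00983). Cyp7b1, which breaks oxysterols down, read 9.79, 10.39 and 9.92 in healthy fibroblasts, 10.49, 10.73 and 10.61 in MDA micro, 10.57, 10.83 and 10.39 in MDA-LM2 micro, 11.76, 11.58 and 11.61 in MDA macro and 11.58, 11.39 and 11.65 in MDA-LM2 macro. It lay above all others on every macro array, at 0.99 ± 0.09 (adjusted p = 6.74e-06), or 0.63 with the mean of its probe sets. Apoe, an LXR target and an acceptor of exported cholesterol, read 12.78, 12.80 and 12.77 in healthy fibroblasts, 12.74, 12.82 and 12.90 in MDA micro, 12.60, 12.58 and 12.80 in MDA-LM2 micro, 11.52, 11.66 and 11.88 in MDA macro and 11.67, 11.55 and 11.71 in MDA-LM2 macro. The macro arrays lay at least 0.70 below every other array, at -1.07 ± 0.08 (adjusted p = 1.74e-06). Of the same list, Abca7, Lpcat3, Pltp, Rxra and Rxrb were not called in the stage comparison. In MDA alone Abca7 was called lower at week 3 (-0.58 ± 0.14, adjusted p = 0.0269), and in MDA-LM2 it was not called (-0.11 ± 0.34).

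**Figure D5:**
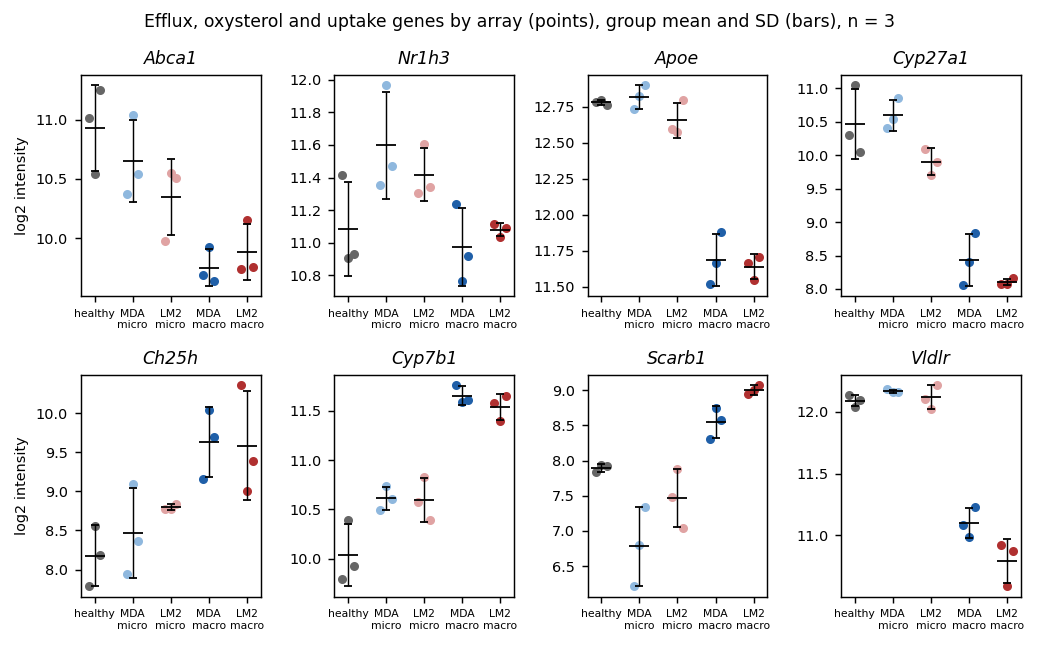
Log2 intensity (vertical axes, each panel with its own range) of 8 genes of efflux, oxysterol metabolism and lipoprotein uptake on each array, with points for the 3 arrays of a group and bars for the group mean and SD (LM2 stands for MDA-LM2). Apoe, Cyp27a1 and Vldlr are lower on all macro arrays than on all other arrays, and Cyp7b1 and Scarb1 are higher.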

How the data were processed

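Sorted lung fibroblasts were profiled on 15 Affymetrix Mouse Genome arrays from amplified RNA (Ovation Pico WTA System). Per the methods, the authors normalized the arrays by the robust multi-array average in Chipster before the table was deposited. The deposited values are intensities on a linear scale (31.0 to 35.2 at the lowest probe set of an array and 26890 to 27897 at the highest), so log2 of the deposited intensities was taken and nothing else was normalized. Raw scans were not used, low expression may therefore be background, and precision is limited by 3 arrays per group.

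Of 45100 probe sets 34957 had 1 gene symbol in the platform annotation, 932 several and 9211 none. Each of 18194 genes was represented by its single-symbol probe set of highest mean over all arrays. Tests were two-sided with limma 3.58.1 under R 4.3.3 (lmFit, eBayes), adjusted by Benjamini-Hochberg over all genes. A comparison of 2 groups used their 6 arrays. For the stage effect over both lines, in which the line was a covariate, and for the interaction, the 12 metastasis arrays were fitted. The fits were tested on simulated data.

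Members and lists were chosen with earlier results of these data known. Values by array are given for the called members of largest change in each arm (at most 3 in the stage comparison and 2 in others), for the SREBP and LXR regulators and efflux genes, and for called genes of largest change of the related lists. Sc5d and the remaining members named were outside that rule. Alternatives were 1 fit of all 15 arrays, leaving out each array, a block for the replicate number, quantile normalization, median centring, the mean of a gene's probe sets and leaving out dim genes.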

Additional observations from a re-analysis of the deposited data

Results flagged for a closer look

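The test of the difference in stage effect between the lines called no member gene, and groups of 3 arrays were not tested for single arrays far from the others. Among the marker genes read beside the members, the same test (MDA-LM2 minus MDA, log2) called Kdr, an endothelial growth factor receptor, at 1.17, and Top2a, a proliferation marker, at -1.13. With the mean of its probe sets the value for Top2a was -0.14 and was not called (adjusted p = 0.786). The call of Kdr was lost without MDA micro replicate 2, MDA macro replicate 1 or 3, or MDA-LM2 macro replicate 1 or 2 (adjusted p = 0.0521 to 0.0645), and with the replicate block.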

How the results depend on the processing

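Over both lines, 19 of the 22 called members were called under each of 18 alternatives, the exceptions being Insig2, Acaca and Ebp, and no called value changed its sign. Scap, not called, ranged from -0.0066 (without MDA-LM2 micro replicate 1) to 0.137 when single arrays were left out. The count of called members moved by more than 1.5 times in 3 comparisons. A fit of all 15 arrays called 1 member between MDA micro and healthy and 2 between MDA-LM2 micro and healthy. Leaving out single arrays gave 0 to 1 called members between MDA-LM2 micro and healthy and 9 to 13 between MDA-LM2 macro and healthy. The mean of probe sets moved the called values of several genes by over 1.5 times, as given beside them. The median stage effect of the fatty acid genes was 0.27 with the mean of probe sets and 0.34 to 0.56 without single arrays. Same-numbered arrays of different groups did not deviate together (r from -0.0582 to 0.0788, with 0 of 30 pairs over 0.1). This check can only show a strong shared deviation, so a weaker one behind the same number was not tested. With the replicate block, 0 members were called between MDA-LM2 micro and healthy, no other count moved by more than 1.5 times, and 10 of 78 single calls of members were lost. The cause of these shifts was not tested. With 3 arrays per group, effects that are small against the spread between arrays could not be called.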
